A study of Mus musculus with 23 samples.

Results

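Circumvallate papillae of obese mice whose energy intake had been restricted were compared with papillae of obese mice that fed freely. The members were the 8 samples titled DIO-R and the 8 titled DIO, 16 of the 23 samples of the series, and the lean samples were left out. The circumvallate papilla is a taste organ at the back of the tongue, a trench lined with taste buds and fed by the von Ebner glands. Messenger RNA was measured on 1-colour Agilent mouse arrays, with Cy3-labelled copy RNA made from 25 ng of total RNA per sample.

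DIO samples (n = 8) came from male C57Bl6j mice on a freely available obesogenic diet, high in fat and rich in saturated fatty acids. DIO-R samples (n = 8) came from male mice of the same strain, and the labels do not spell out the code. It was read here as the diet-induced obese mice of the design text that received 60% of the energy taken by freely fed mice. Both groups had therefore been on the obesogenic diet, and the labels do not give the food used during restriction, its duration, the time since the last meal or the hour of sampling. In the preparation described, enzymes loosened the lingual epithelium from connective tissue before dissection of the papilla. The labels do not state that each sample is 1 animal, so the p-values measure only the spread between these samples, which may be technical. Expression is given as log2 signal minus the array's own 75th percentile, so that 0 is the level of a fairly bright spot and 1 unit is a doubling. A difference is always DIO-R minus DIO on this log2 scale.

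Cells burn either glucose or fatty acids, and the PPAR family of nuclear receptors is the main switch that fatty acids themselves turn: once bound, PPARs raise genes for fatty acid transport, carnitine transfer and beta-oxidation. The same programme raises Pdk4, which shuts off pyruvate dehydrogenase, and Angptl4, which blocks lipoprotein lipase. SREBP factors run the opposite programme, the synthesis of fatty acids and cholesterol. The circadian clock is a feedback loop in which Clock and Bmal1 (the gene Arntl) drive Per, Cry, Rev-erb and Dbp genes through E-boxes, and feeding time sets its phase in peripheral tissues. In taste buds, type II cells sense sweet, umami and bitter compounds, type III cells sense sour, type I cells are glia-like, and Cd36 and Ffar4 have been studied as receptors for dietary fat.

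The arrays were of like quality. The share of probes well above background ran from 66.9% to 78.4%, no spot was saturated, and pairs of arrays correlated at 0.960 to 0.992 over genes, a description over probes that share a design. The 3 slides each held both groups. Taste receptor and transduction genes such as Tas1r2, Gnat3 and Trpm5 were well above background on all 16 arrays, as were the keratinocyte marker Tgm1, the muscle protein Pvalb and the haemoglobin gene Hbb-bt; RNA of muscle and blood was thus measured along with that of the papilla. Some arrays stood apart: DIO 1 and DIO 6 were low in taste cell genes, with mean centred levels of -1.17 and -0.64 for type II genes, DIO-R 5 was low in muscle genes (-2.06), and DIO 3 was high in interferon response genes (1.73). In such bulk tissue, fewer cells of a type and less RNA per cell cannot be told apart.

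Energy restriction went with a small set of changed genes, among them Angptl4, Acot1, Acot5, Pdk4 and Cpt1a of fatty acid use and Dbp of the clock. Of 27414 genes tested with limma, 15 passed at a Benjamini-Hochberg adjusted p under 0.05, which is 0.0547%. Of these, 6 rose in DIO-R (Dbp, Ccdc116, Scd2, Bdh1, Camkk1 and Hivep2), 0.0219% of the genes tested, and 9 fell (Pdk4, Angptl4, Tmem82, Acot5, Acot1, Impa2, Klf11, Txnip and Cpt1a), 0.0328%. For all 15, every one of the 8 DIO-R samples lay beyond the DIO mean, and the direction was the same within each of the 3 slides. For 10 of the 15 the 8 and 8 samples did not overlap at all, against 23 genes (0.0839%) of all those tested. The 15 were picked by p on these same arrays, so these counts describe them and add no separate support. The median difference over all genes was 0.01, and 51.8% of genes were higher in DIO-R. At an unadjusted p under 0.05, 1755 genes were higher in DIO-R (6.40%) and 1073 lower (3.91%), and these shares are the background against which the gene lists are read. Genes of a list were measured on the same 16 arrays and are not independent of one another, so counts of them are a description. The number of genes that passed depended on single arrays: it was between 5 and 8 without any 1 of 12 arrays (DIO 1, 2, 5, 6, 7 and 8 and DIO-R 2, 4, 5, 6, 8 and 10) and between 12 and 20 when DIO 3, DIO-R 3, DIO-R 7 or DIO 10 was left out. Angptl4, Tmem82, Acot1, Acot5 and Impa2 passed in all 16 of these fits.

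**Figure D1:**
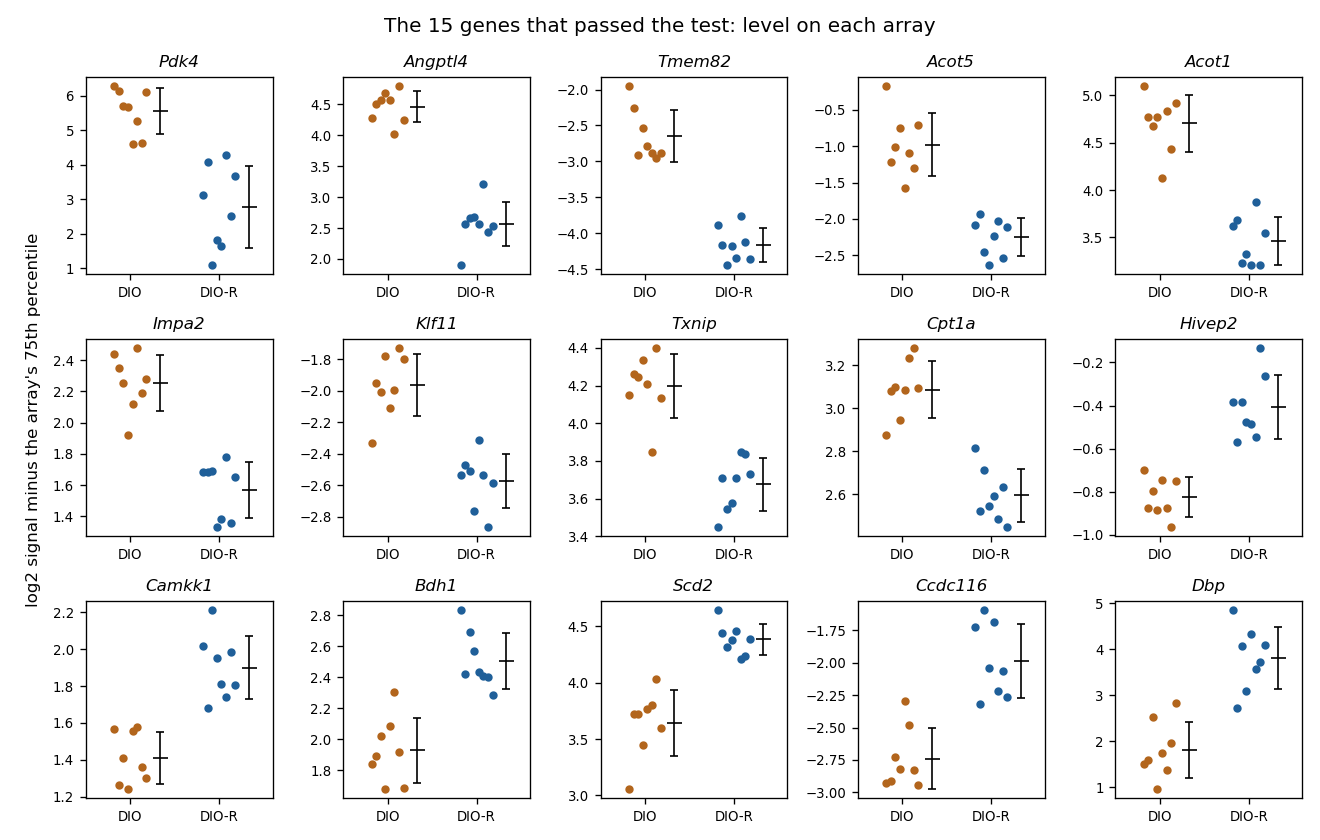
Level of each of the 15 genes that passed the test (y axes: log2 signal minus the array's 75th percentile; each panel has its own scale) in the 8 DIO and 8 DIO-R samples, ordered from the lowest to the highest difference. Points are samples and the bar beside them is the mean with its SD; Angptl4 lay between 4.03 and 4.80 in DIO and between 1.90 and 3.21 in DIO-R, with no overlap.

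Angptl4 gave the clearest difference of all genes. It encodes a secreted inhibitor of lipoprotein lipase that PPARs induce when fatty acids are plentiful in the cell, and its probe lies at chr17:33911880-33911939 in mouse build mm9. In DIO its level was 4.03 at the lowest, 4.54 at the median and 4.80 at the highest, and in DIO-R 1.90, 2.57 and 3.21. Every restricted sample lay below every freely fed sample. Angptl4 fell by 1.90 ± 0.15 (SE, n = 8 and 8; limma adjusted p = 2.94e-05), a 3.72-fold fall.

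Pdk4, the kinase that phosphorylates and shuts off pyruvate dehydrogenase, showed the largest difference among the genes that passed (probe at chr6:5433441-5433500, mm9). Its DIO levels ran from 4.61 through a median of 5.70 to 6.28. Its DIO-R levels ran from 1.09 through 2.83 to 4.28, so the groups did not overlap but the restricted samples were spread widely, with an SD of 1.19 against 0.66. The highest restricted samples were DIO-R 7 (4.28) and DIO-R 3 (4.07), the lowest DIO-R 5 (1.09). Pdk4 fell by 2.77 ± 0.45 (limma adjusted p = 0.0373), or 6.82-fold. It passed in 4 of the 16 fits without 1 array, and its difference was -2.45, -3.66 and -1.86 within slides 1, 2 and 3.

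Cpt1a, the liver-type carnitine palmitoyltransferase that commits long-chain fatty acids to the mitochondrion (probe at chr19:3385374-3385433, mm9), had levels of 2.88, 3.09 and 3.28 (lowest, median, highest) in DIO and 2.45, 2.57 and 2.81 in DIO-R. The change was small but the groups were apart. Cpt1a fell by 0.49 ± 0.07 (limma adjusted p = 0.0177), or 1.41-fold, and lost its call when any of DIO-R 4, DIO 5, DIO 7 and DIO 8 was left out. The muscle form Cpt1b differed by -0.80 ± 0.39, with overlapping groups (1.13 to 2.58 in DIO, -0.78 to 2.27 in DIO-R) and did not pass (limma adjusted p = 0.496). Cpt2, the inner membrane partner of both, differed by -0.42 ± 0.13 (limma adjusted p = 0.412).

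The acyl-CoA thioesterases, which release free fatty acids from coenzyme A, gave 2 of the 15 genes, both lower (background 0.0328%). Acot1, the cytosolic enzyme, lay between 4.13 and 5.10 in DIO (median 4.77) and between 3.20 and 3.88 in DIO-R (median 3.43). Acot1 fell by 1.24 ± 0.14 (limma adjusted p = 0.000995), or 2.37-fold, with no overlap. Acot5, a peroxisomal enzyme, lay between -1.58 and -0.17 in DIO and between -2.64 and -1.94 in DIO-R. Acot5 fell by 1.28 ± 0.17 (limma adjusted p = 0.00957), but a second probe of the gene went the other way, and with the mean of its probes the difference was -0.59 and did not pass. Acot2, the mitochondrial enzyme, was next at -0.88 ± 0.16 (limma adjusted p = 0.0767), with -1.95 to -1.14 in DIO and -2.75 to -1.82 in DIO-R. Acot1 and Acot2 are near-identical copies that lie together with Acot5 in a cluster, so their probes can share signal. Acot4 and Acot6 differed by -0.40 ± 0.15 and -0.14 ± 0.06. Of the 13 thioesterases measured 9 were lower, 5 of them at an unadjusted p under 0.05 (background 3.91%), and the list's median was -0.14. Leaving out DIO-R 8, DIO-R 2 or DIO 8 gave -0.06, -0.08 and -0.09, and the slide as a block -0.05.

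The whole list of fatty acid oxidation genes and PPAR targets was lower in DIO-R. Of 53 genes listed 50 were kept; Fabp1, Fgf21 and Abcd2 were too dim. The median difference was -0.28, against 0.01 over all genes, and 40 of the 50 were lower and 10 higher. At an unadjusted p under 0.05, 21 were lower (background 3.91%) and none higher (background 6.40%). At the adjusted threshold 3 fell, Pdk4, Angptl4 and Cpt1a (background 0.0328%). The mean centred level of the list ran from -0.13 to 0.49 in DIO and from -0.61 to 0.18 in DIO-R, so the groups overlapped. The list was split by role, and sensitivity to PPARs was not measured. The genes grouped as PPAR-sensitive targets had the lowest median, -0.55 over 17 genes. Pdk4, Angptl4 and the 3 genes shared with the adipocyte marker list are among them. Carnitine shuttle genes followed at -0.45 (6 genes), then mitochondrial beta-oxidation enzymes at -0.27 (14 genes), and peroxisomal genes lay at -0.06 (13 genes).

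Among the PPAR targets, Plin2, which coats lipid droplets, differed by -0.45 ± 0.10 (limma adjusted p = 0.244), with 2.92 to 3.79 in DIO and 2.74 to 3.01 in DIO-R. The uncoupling proteins Ucp3 and Ucp2 differed by -0.34 ± 0.08 and -0.29 ± 0.09, and Ucp3 by -1.25 with the mean of its probes. Eci3, a peroxisomal enoyl-CoA isomerase, differed by -0.51 ± 0.10 (limma adjusted p = 0.157). In the mitochondrial spiral, Hadha, a subunit of the trifunctional protein, differed by -0.28 ± 0.10 and Acadl, an acyl-CoA dehydrogenase, by -0.27 ± 0.16. Of the receptors themselves, none passed: Ppara differed by -0.12 (95% interval -0.52 to 0.27), Ppard by 0.13 (-0.08 to 0.34), and Pparg by 0.26 (0.11 to 0.41), in Pparg's case with no overlap between the groups (0.01 to 0.32 in DIO, 0.32 to 0.78 in DIO-R).

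**Figure D2:**
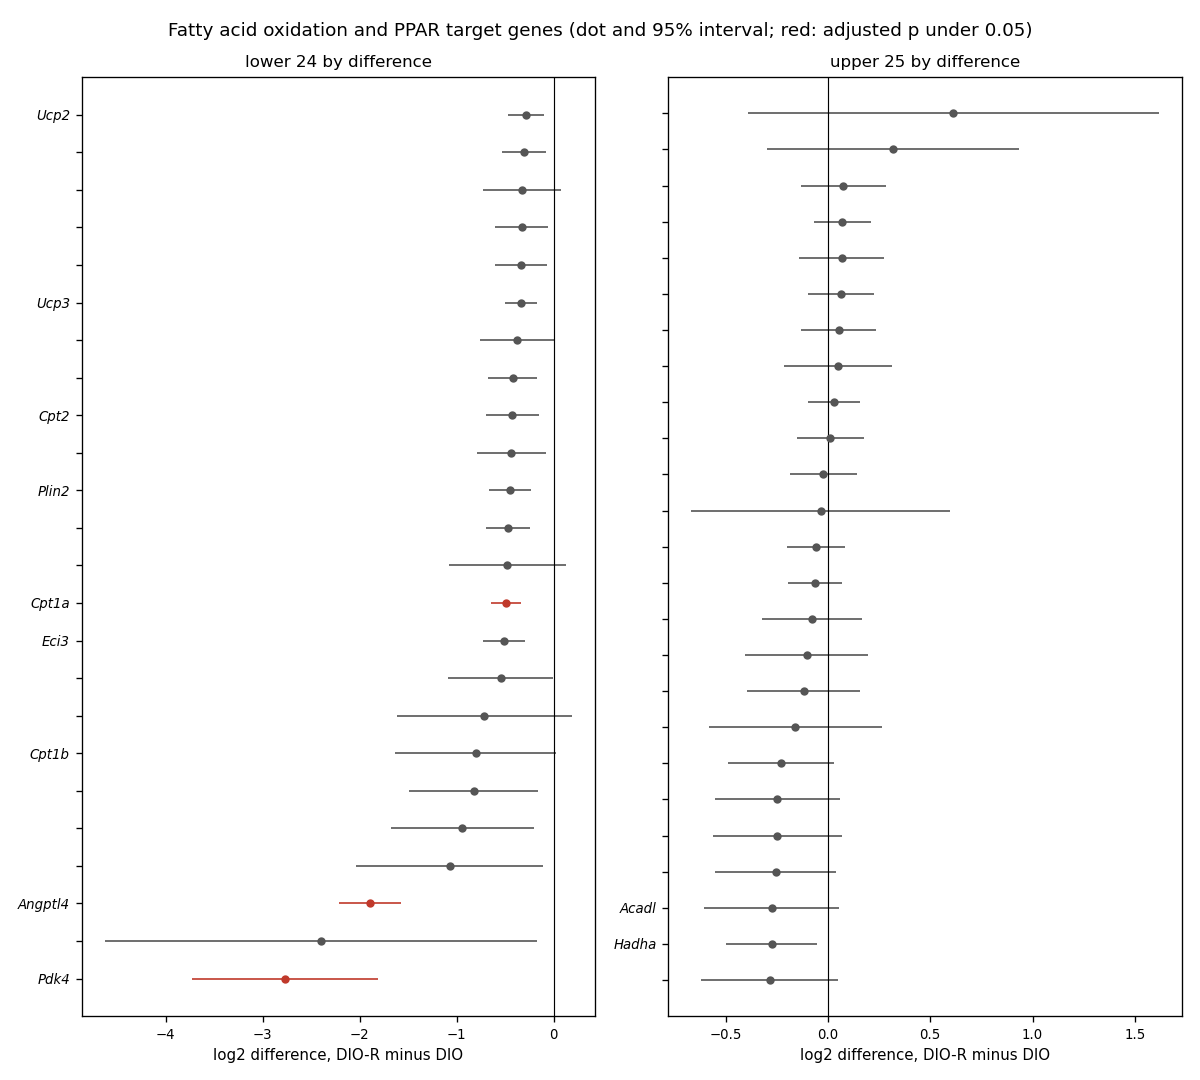
Difference DIO-R minus DIO (x axis: log2 units; the panels have different scales) for 49 of the 50 fatty acid oxidation and PPAR target genes kept, sorted by difference, with the genes described in the text named. Dots are limma estimates and lines their 95% intervals; red dots mark the 3 genes that passed over all genes tested, Pdk4 (-2.77), Angptl4 (-1.90) and Cpt1a (-0.49), and 39 of 49 dots lie left of 0.

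Markers of muscle, fat and blood were lower in the same samples. All 20 skeletal muscle markers were lower in DIO-R, with a median of -0.62, 4 of them at an unadjusted p under 0.05 (background 3.91%). Their mean centred level ran from -0.50 to 1.01 in DIO and from -2.06 to 0.71 in DIO-R. Of 11 adipocyte markers 9 were lower (median -0.68, or -0.27 with normexp background correction). At an unadjusted p under 0.05, 5 adipocyte markers were lower (background 3.91%) and 1 was higher (background 6.40%). The adipocyte list shares 3 genes with the oxidation list. Its mean centred level ran from -0.66 to 1.37 in DIO and from -1.46 to 0.72 in DIO-R. All 5 erythrocyte markers measured were lower, each at an unadjusted p under 0.05 (background 3.91%). Their median was -1.12, and their mean centred level ran from -0.32 to 1.45 in DIO and from -1.56 to 0.34 in DIO-R. With the muscle and adipocyte levels as covariates, an analysis chosen after the data were seen, the oxidation list lay at -0.09, and with the erythrocyte level at -0.13. In the former fit Angptl4, Acot1, Acot5, Pdk4 and Cpt1a lay at -1.93, -0.96, -0.94, -1.96 and -0.56 and each passed, while Cpt1b, Lpl and Cd36 lay at -0.12, -0.12 and -0.29. In the latter fit Angptl4 alone passed of all genes, at -1.75, and Pdk4, Cpt1a, Acot1 and Acot5 lay at -2.09, -0.49, -0.97 and -1.07. In slide 3, where muscle markers were higher in DIO-R (median 0.23) and adipocyte markers equal (0.00) but erythrocyte markers lowest (-1.86, against -0.65 and -1.04 in slides 1 and 2), Angptl4, Pdk4 and Cpt1a differed by -1.80, -1.86 and -0.66 and the whole oxidation list by -0.10.

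No gene that delivers fatty acids to the cell passed. Lipoprotein lipase itself, Lpl, differed by -0.76 ± 0.39, from a range of 1.97 to 3.54 in DIO to 0.35 to 3.26 in DIO-R. Its anchor on capillaries, Gpihbp1, differed by -0.49 ± 0.21, and Mgll, which splits monoglycerides, by -0.26 ± 0.07. The lipase list of 12 genes had a median of -0.17, which was -0.11 without DIO 1, -0.10 without DIO-R 5, 0.00 with the muscle and adipocyte covariates and -0.01 with the erythrocyte covariate. Among 13 uptake and activation genes (median -0.07), the acyl-CoA synthetase Acsbg1 differed by -0.46 ± 0.11 and the transporter Slc27a1 by -0.28 ± 0.09.

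Among 13 genes that control pyruvate dehydrogenase Pdk4 alone passed. Of the other kinases, Pdk1 differed by 0.10 (95% interval -0.05 to 0.25) and Pdk2 by -0.44 (-1.04 to 0.17), and neither passed as Pdk4 did; whether the kinases differed from one another was not tested. Pdp2, a phosphatase that reactivates the complex, was higher in every restricted sample: -0.40, -0.24 and -0.13 (lowest, median, highest) in DIO and -0.06, 0.03 and 0.36 in DIO-R. Its difference of 0.32 ± 0.07 did not pass (limma adjusted p = 0.164) and was 0.15 with the mean of its probes, as a second probe differed by -0.02. The other phosphatase Pdp1 differed by 0.14 ± 0.12 and the complex component Pdhx by -0.19 ± 0.10. Over the list the median was -0.06.

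Of the ketone body genes, 1 of 8 passed, a higher one (background 0.0219%). Bdh1, the enzyme that interconverts the ketone bodies acetoacetate and beta-hydroxybutyrate, lay between 1.68 and 2.30 in DIO (median 1.90) and between 2.29 and 2.83 in DIO-R (median 2.43), touching at the edge. Bdh1 rose by 0.58 ± 0.10 (limma adjusted p = 0.0474), or 1.49-fold. Oxct1, another enzyme of ketone use, differed by 0.22 ± 0.07. Of the 8 genes of the list 3 were higher and 5 lower, with a median of -0.05. Bdh1 kept its call in 1 of the 16 fits without 1 array.

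Lipid synthesis genes were higher in DIO-R. Scd2, a desaturase that makes monounsaturated fatty acids and is active in skin and brain, lay at 3.05, 3.72 and 4.03 in DIO and at 4.21, 4.38 and 4.64 in DIO-R (probe at chr19:44381024-44381083, mm9). The groups did not overlap, and the lowest value, 3.05, was that of DIO 1. Scd2 rose by 0.74 ± 0.11 (limma adjusted p = 0.0243), or 1.67-fold, and differed by 1.04, 0.72 and 0.46 within the 3 slides. With the slide as a block it did not pass (limma adjusted p = 0.0504), and it kept its call in 7 of the 16 fits without 1 array. Its liver relative Scd1 differed by 0.24 ± 0.12. Of 21 fatty acid synthesis and desaturation genes 16 were higher, 9 of them at an unadjusted p under 0.05 (background 6.40%), and the median was 0.19.

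Srebf1, the transcription factor SREBP1 that drives this programme, differed by 0.49 ± 0.11 (limma adjusted p = 0.226; -1.95 to -1.24 in DIO, -1.51 to -0.84 in DIO-R). The elongase Elovl4 and malic enzyme Me1, which supplies reducing power, differed by 0.54 ± 0.17 and 0.41 ± 0.14. The entry enzymes Acly, Acaca and Fasn differed by 0.21 ± 0.07, 0.19 ± 0.08 and 0.25 ± 0.14. None of these passed.

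Cholesterol synthesis and uptake genes were higher more uniformly, without a single gene that passed. Of 33 genes 29 were higher, 24 at an unadjusted p under 0.05 (background 6.40%), and the median was 0.37. All 21 enzymes of the pathway were higher (median 0.38). The mean centred level of the 33 genes ran from -0.40 to 0.18 in DIO and from -0.12 to 0.47 in DIO-R, so the groups overlapped. Mvd and Lss, enzymes of the pathway, differed by 0.48 ± 0.13 and 0.49 ± 0.14. The sensor partner Insig1 differed by 0.45 ± 0.14 and Srebf2 by 0.39 ± 0.12. Differentiated keratinocyte markers were higher in the same comparison: 28 of 28, with a median of 0.40 and mean levels of -1.09 to 0.66 in DIO and -0.27 to 0.48 in DIO-R. In a fit added later with that level as a covariate, the cholesterol list lay at 0.24 and the fatty acid synthesis list at 0.15, and Elovl4, Me1 and Lss lay at 0.26, 0.16 and 0.29. The list's median was 0.55, 0.35 and 0.17 within slides 1, 2 and 3.

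**Figure D3:**
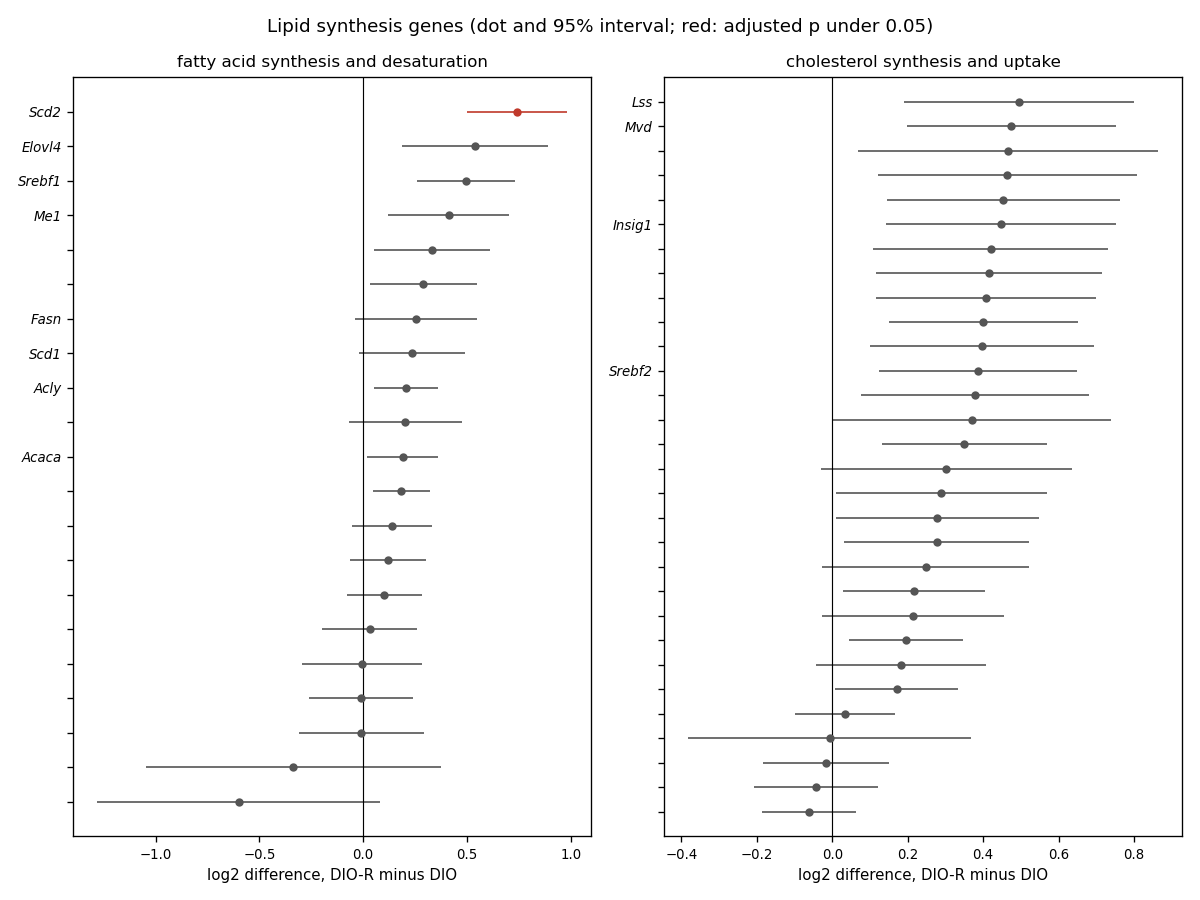
Difference DIO-R minus DIO (x axes: log2 units) for the 21 fatty acid synthesis and desaturation genes and 30 of the 33 cholesterol synthesis and uptake genes kept, named where the text describes them. Dots are limma estimates and lines their 95% intervals; Scd2 (0.74, red) passed over all genes tested, and 26 of the 30 cholesterol genes plotted lie right of 0.

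No gene of glycogen storage and gluconeogenesis passed. Ppp1r3c, the subunit that brings protein phosphatase 1 to glycogen and so promotes its storage, lay between 0.73 and 2.12 in DIO (median 1.47) and between -1.76 and 0.70 in DIO-R (median 0.12). The groups did not overlap, yet the difference of -1.53 ± 0.32 did not pass (limma adjusted p = 0.164), and it was -1.73, -2.13 and -0.54 within slides 1 to 3. Fbp2, a fructose bisphosphatase of muscle, differed by -0.52 ± 0.14. Pck1, of gluconeogenesis, was well above background in 7 of 8 DIO but 1 of 8 DIO-R samples; its difference of -1.85 ± 0.75 did not pass and was -0.45 with normexp background correction. Of the 12 genes on this list 11 were lower (median -0.26), and the median was -0.17 without DIO-R 5, -0.14 without DIO 1 and DIO 6, -0.11 with the muscle and adipocyte covariates and -0.07 with the erythrocyte covariate. Glucose uptake and glycolysis genes lay at a median of 0.04; the transporter Slc2a1 differed by 0.40 ± 0.12 (limma adjusted p = 0.39) and hexokinase Hk2 by 0.20 ± 0.09.

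The clock's output arm was higher throughout. Dbp, a transcription factor that Clock and Bmal1 drive and that is among the most rhythmic of genes, lay at 0.96, 1.66 and 2.83 in DIO and at 2.73, 3.90 and 4.85 in DIO-R (probe at chr7:52965322-52965381, mm9). The groups overlapped narrowly, where DIO 8 (2.83) lay above DIO-R 3 (2.73). Dbp rose by 2.00 ± 0.31 (limma adjusted p = 0.0243), or 3.99-fold. It differed by 1.92, 2.48 and 1.40 within the slides and kept its call in 7 of the 16 fits without 1 array. All 13 genes of the Per-Dbp arm were higher, 11 at an unadjusted p under 0.05 (background 6.40%), with a median of 0.69. Genes of this arm are coupled in 1 loop, so the 13 are not independent of one another.

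The 5 following windows of promoters of that arm are shown because they hold the letters through which the loop is known to act: in capitals the E-box CACGTG, to which Clock and Bmal1 bind, or the D-box TTATGTAA, to which Dbp, Tef and Hlf bind. They are from RefSeq (build GRCm38.p6), run 5′ to 3′ on the gene's strand, lie at chr3:95882247-95882364 (minus) for Ciart, chr11:69098763-69098808 (plus) for Per1, chr15:81802526-81802571 and chr15:81811256-81811301 (both plus) for the upstream and downstream starts of Tef, and chr4:151044796-151044890 (minus) for Per3, and keep 20 bases on each side.
Ciart: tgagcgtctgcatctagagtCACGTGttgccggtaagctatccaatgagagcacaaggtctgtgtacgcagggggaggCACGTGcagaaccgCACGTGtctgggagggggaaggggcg
Per1: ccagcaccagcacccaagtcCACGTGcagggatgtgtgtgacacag
Tef, upstream start: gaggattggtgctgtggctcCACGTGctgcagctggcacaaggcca
Tef, downstream start: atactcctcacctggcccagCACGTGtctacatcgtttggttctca
Per3: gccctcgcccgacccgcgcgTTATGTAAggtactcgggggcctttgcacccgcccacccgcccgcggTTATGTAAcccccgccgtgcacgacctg

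In the 300 bases around a start that the table gives (250 before and 50 after), an E-box on either strand stood in 5 of the 13 promoters of the Per-Dbp arm (38.5%; Per1, Tef with both starts, Ciart and Bhlhe41) against 7.15% of all 32851 promoters. The 13 promoters belong to 11 genes, of which 4 held an E-box. Per2 and Bhlhe40 had no promoter to search. No E-box or D-box stood in the window for Dbp, Nr1d1 or Nr1d2. The 3 E-boxes of Ciart begin 116, 58 and 44 bases before the start. A D-box stood in 1 of the 13 (Per3, 205 and 158 bases before the start) against 0.938% of all. In the Bmal1 arm 1 of 9 promoters held an E-box (Cry1). Of the 15 promoters found for the called genes, 1 held an E-box (Klf11), and of 42 promoters of the oxidation list 2 did (Plin2 and Fgf21). The spelling AGGTCA, any base, AGGTCA, a simple form of the element that PPARs bind, stood in none of these and in 13 of all promoters. These are matches of letters in a window, given as a description. The genes of the Per-Dbp arm were listed as members of a loop known to act through E-boxes. Their share of E-boxes therefore follows from the choice of list and says nothing about restriction. The window of Bhlhe41 is not printed above.

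The E-box holders did not all differ alike. Ciart, a repressor of Clock and Bmal1, lay at -6.40, -4.06 and -3.82 in DIO and at -3.71, -2.80 and -1.93 in DIO-R, with no overlap and DIO 1 far below the rest. Its difference of 1.57 ± 0.36 did not pass (limma adjusted p = 0.247), and for this dim probe it was 0.63 with normexp background correction. Tef, a relative of Dbp, differed by 0.77 ± 0.15 (limma adjusted p = 0.109; 4.35 to 5.10 in DIO and 4.87 to 5.99 in DIO-R). Per1 differed by 0.25 (95% interval -0.19 to 0.68), and the mean of its probes by -0.03. Bhlhe41, a repressor that binds E-boxes, differed by 0.14 (-0.27 to 0.54).

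Of the other repressors, Per2 differed by 1.16 ± 0.24 (limma adjusted p = 0.162), from -3.56, -2.81 and -2.41 in DIO to -2.74, -1.57 and -1.13 in DIO-R. Bhlhe40 and Hlf differed by 0.76 ± 0.15 and 0.69 ± 0.16, Per3 by 0.72 ± 0.27, Cry2 by 0.35 ± 0.09, and the Rev-erb genes Nr1d2 and Nr1d1, which repress Bmal1, by 0.57 ± 0.14 and 0.49 ± 0.15. None passed. On the opposing side, Arntl (Bmal1) differed by -0.65 ± 0.18 (limma adjusted p = 0.343; 0.92 to 1.55 in DIO, -0.23 to 1.14 in DIO-R) and Nfil3, a D-box repressor that rises when Dbp is low, by -0.67 ± 0.19. Of the other genes of the Bmal1 arm, Clock, Npas2 and Cry1 differed by 0.07 ± 0.08, 0.15 ± 0.15 and 0.12 ± 0.11, and the median of the 7 genes was 0.07 (-0.09 with the erythrocyte covariate). The Per-Dbp arm had medians of 0.66, 0.76 and 0.44 within the 3 slides, 0.56 without DIO 1 and DIO 6, and 0.49 with the erythrocyte covariate.

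**Figure D4:**
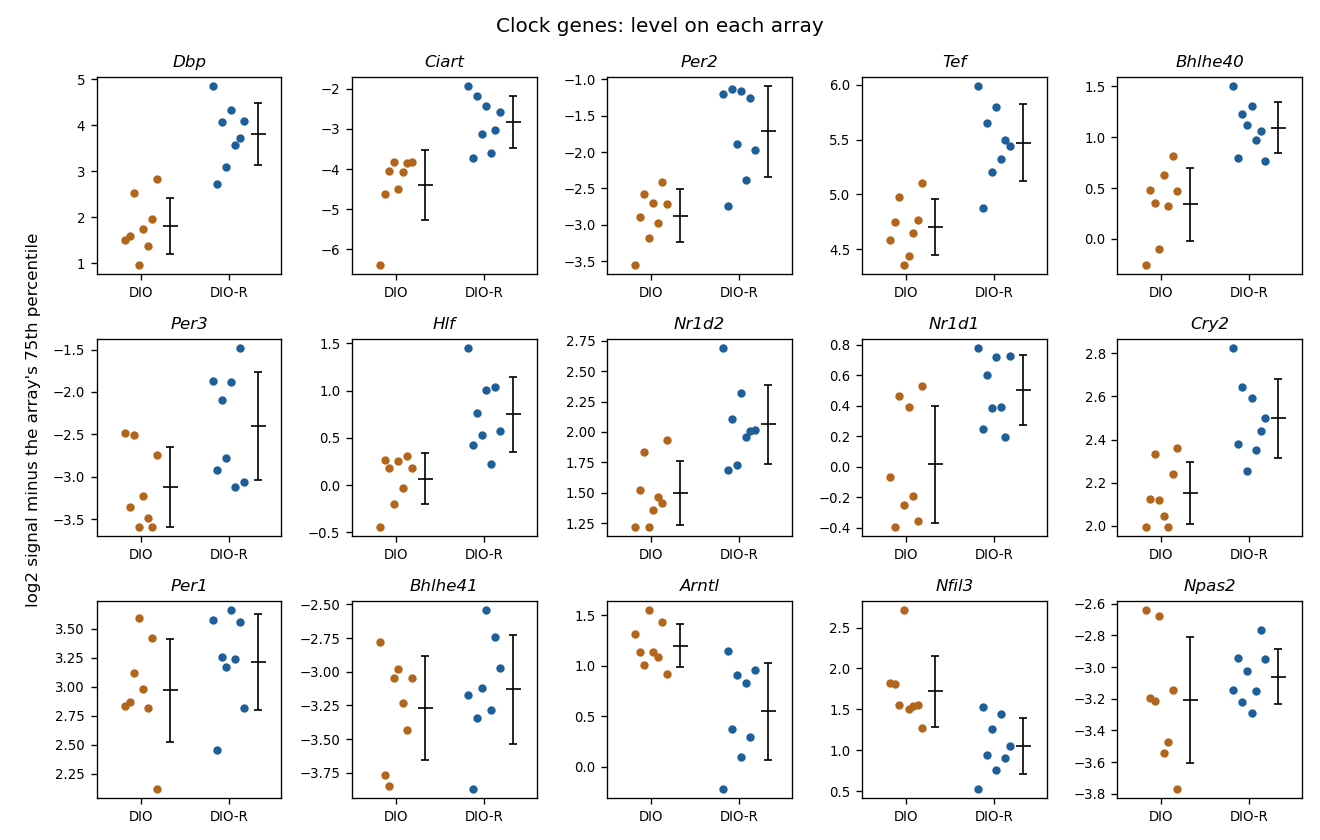
Level of 15 clock genes (y axes: log2 signal minus the array's 75th percentile; each panel has its own scale) in the 8 DIO and 8 DIO-R samples, with 12 genes of the Per-Dbp arm first and Arntl, Nfil3 and Npas2 of the Bmal1 arm last. Points are samples and bars the mean with its SD; Dbp and Ciart are higher in DIO-R (differences 2.00 and 1.57), Arntl and Nfil3 lower (-0.65 and -0.67).

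Regulators of glucose use were also among the genes that passed. Txnip, a glucose-induced protein that binds thioredoxin and curbs glucose uptake, lay between 3.85 and 4.40 in DIO (median 4.23) and between 3.45 and 3.85 in DIO-R (median 3.71). Its lowest DIO sample, DIO 3, reached the top of the restricted range. Txnip fell by 0.52 ± 0.08 (limma adjusted p = 0.029), or 1.44-fold, and kept its call in 4 of the 16 fits without 1 array. Klf11, a Kruppel-like transcription factor linked to glucose and lipid control, lay between -2.33 and -1.73 in DIO and between -2.87 and -2.32 in DIO-R. Klf11 fell by 0.61 ± 0.10 (limma adjusted p = 0.0283); its difference was -0.40, -0.57 and -0.90 within slides 1 to 3, and -0.39 with normexp background correction. With the slide as a block Klf11 did not pass (limma adjusted p = 0.0504), and it kept its call in 6 of the 16 fits without 1 array. Klf16 differed by 0.40 ± 0.10, and the 14 Kruppel-like factors measured had a median of 0.05.

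Camkk1, a kinase that activates other calcium-dependent kinases, lay between 1.24 and 1.58 in DIO and between 1.68 and 2.21 in DIO-R. Camkk1 rose by 0.49 ± 0.08 (limma adjusted p = 0.0474) with no overlap. It did not pass with the slide as a block (limma adjusted p = 0.0544) and kept its call in 2 of the 16 fits without 1 array.

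Of 19 FoxO and fasting genes 15 were lower, 3 of them at an unadjusted p under 0.05 (background 3.91%), and Txnip passed. The median was -0.09; it was -0.06 without DIO 6, -0.14 without DIO 3, -0.05 without DIO 1 and DIO 6, and 0.00 with the muscle and adipocyte covariates. Trim63, a muscle ubiquitin ligase, differed by -1.33 ± 0.43 and Ppargc1a, the coactivator of mitochondrial genes, by -0.86 ± 0.30; with the muscle and adipocyte covariates they lay at -0.63 and -0.36. Sirt1, a deacetylase, differed by 0.23 ± 0.08, Sesn1 by -0.07 ± 0.08 and the insulin receptor substrate Irs2 by -0.09 ± 0.11. Glucocorticoid targets had a median of 0.08 over 16 genes, 10 of them higher (by up to 0.44) and 6 lower. At an unadjusted p under 0.05, 1 was higher (background 6.40%) and 3 were lower (background 3.91%). Fkbp5 differed by -0.18 (95% interval -0.65 to 0.29), Tsc22d3 by -0.11 (-0.51 to 0.29) and Klf9 by -0.12 (-0.41 to 0.17), whereas Per1, also on this list, differed by 0.25. The 2 that passed, Pdk4 and Angptl4, were lower and stand on the PPAR list too. Respiratory chain subunits lay at a median of -0.09, 19 of 21 lower and none at an unadjusted p under 0.05; the list lay at -0.08, -0.23 and 0.07 within slides, at -0.05 without DIO-R 5, DIO 5 or DIO-R 10, at -0.06 without DIO-R 8 and at -0.14 without DIO-R 7. Its sign turned with the muscle and adipocyte covariates (0.09) and with the erythrocyte covariate (0.08).

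The remaining genes that passed belong to no common pathway of the lists. Tmem82, a membrane protein (probe at chr4:141170279-141170338, mm9), lay between -2.95 and -1.95 in DIO and between -4.45 and -3.76 in DIO-R. For this dim probe, Tmem82 fell by 1.51 ± 0.15 (limma adjusted p = 0.000342), or 2.85-fold, and by 0.71 with normexp background correction. Impa2, an inositol monophosphatase, lay at 1.92, 2.27 and 2.48 in DIO and at 1.33, 1.67 and 1.78 in DIO-R. Impa2 fell by 0.68 ± 0.09 (limma adjusted p = 0.00957), and by 0.67, 0.70 and 0.64 within the slides. Hivep2, a zinc finger factor, rose by 0.42 ± 0.07 (limma adjusted p = 0.0438), from between -0.96 and -0.70 to between -0.57 and -0.13. Ccdc116 rose by 0.75 ± 0.13 (limma adjusted p = 0.0474), from between -2.95 and -2.29 to between -2.32 and -1.59, and this dim probe lay at 0.44 with normexp background correction. Hivep2 did not pass with the slide as a block (limma adjusted p = 0.0711). Hivep2 and Ccdc116 kept their calls in 2 and 3 of the 16 fits without 1 array.

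The 10 genes next in line were 7 lower and 3 higher in DIO-R. Lgals4 and Lgals6, galectins of gut-like epithelia and near-identical copies whose signal cannot be separated with certainty, both differed by -0.49 ± 0.09 (limma adjusted p = 0.0767 and 0.109). Aldh9a1, an aldehyde dehydrogenase of carnitine synthesis, differed by -0.36 ± 0.07 (limma adjusted p = 0.101), and Ppp1r27, a phosphatase subunit, by -0.71 ± 0.14. Acot2 and Tef are described above. Ankrd12, an ankyrin repeat protein, differed by 0.35 ± 0.07 with no overlap (-0.67 to -0.37 in DIO, -0.36 to -0.03 in DIO-R). The other three are 2 unannotated transcripts, D430040L24Rik at -0.81 ± 0.15 and a non-coding region of chromosome 15 at 0.62 ± 0.12 (its 2 other probes differed by 0.15 and -0.19), and a probe without a gene name at -0.67 ± 0.12.

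No taste gene passed. Among type II cell genes, 13 of 14 were higher in DIO-R with a median of 0.27, but this rested on 2 arrays: it was 0.10 without DIO 1 and -0.09 without DIO 1 and DIO 6, an analysis chosen after the data were seen. The sweet receptor subunit Tas1r2 lay at -0.30 in DIO 1 and 1.20 in DIO 6, and between 1.97 and 3.00 in the other 6 DIO samples and 2.01 and 2.89 in DIO-R. Its difference was 0.42 (95% interval -0.36 to 1.20). The shared sweet and umami subunit Tas1r3 differed by 0.28 (0.04 to 0.52), the umami subunit Tas1r1 by 0.16 (-0.26 to 0.58), and the taste G protein Gnat3 by 0.40 (-0.33 to 1.12). Downstream of them, the phospholipase Plcb2 differed by -0.09 (-0.34 to 0.16), the calcium release channel Itpr3 by 0.27 (0.03 to 0.50) and the cation channel Trpm5 by 0.40 (-0.32 to 1.11). The intervals of Tas1r3 and Itpr3 lie above 0 and the other 5 include it, with upper bounds from 0.16 to 1.20.

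Of 35 bitter receptors 24 were bright enough to keep, 20 of them higher (median 0.26; 0.15 without DIO 1, 0.16 without DIO 6, 0.02 without both and 0.06 with normexp background correction). Tas2r134 differed by -0.52 ± 0.21 and Tas2r106 by 0.55 ± 0.30. Type III genes lay at a median of 0.30 (0.07 without DIO 1, -0.03 without DIO 1 and DIO 6), with the channel Pkd2l1 at 0.51 (95% interval -0.25 to 1.27). Type I genes lay at 0.32 (0.18 without DIO 1, 0.07 without both), with Entpd2, the enzyme that clears the transmitter ATP, at 0.13 (-0.19 to 0.45), the sodium channel subunit Scnn1a at 0.36 ± 0.14 and Oxtr, the oxytocin receptor, at 0.57 ± 0.21. Renewal genes lay at 0.18 (0.08 without DIO 1, 0.11 without DIO 6 and -0.01 without both), with the stem cell receptor Lgr5 at 0.33 (-0.25 to 0.92), Sox2 at 0.20 (-0.14 to 0.54) and the Wnt effector Lef1 at 0.32 ± 0.12. In slide 3 the medians of these 5 lists lay between -0.15 and -0.12.

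Receptors for dietary fat did not pass either. Cd36, which binds long-chain fatty acids, lay between 0.91 and 2.20 in DIO (median 1.79) and between -0.94 and 1.74 in DIO-R (median 0.91), with the lowest value in DIO-R 5. Its difference of -0.84 ± 0.36 (limma adjusted p = 0.465) was -0.29 with the muscle and adipocyte covariates and -0.41, -1.60 and -0.26 within slides 1 to 3; muscle and fat also express this gene. Ffar4 differed by -0.14 (95% interval -0.54 to 0.27). Gpr84, a receptor for medium-chain fatty acids, differed by 0.85 ± 0.26 (limma adjusted p = 0.404), a dim probe at 0.28 with normexp background correction. The 11 genes of the fat taste list had a median of 0.02.

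Of the appetite hormone receptors, Cnr1, the cannabinoid receptor, differed by 0.91 ± 0.28 (limma adjusted p = 0.404; -3.71 to -2.28 in DIO and -3.00 to -0.52 in DIO-R). Glp1r differed by 0.51 (95% interval -0.06 to 1.08) and Adipor1, an adiponectin receptor, by 0.20 ± 0.08. The 19 genes kept had a median of 0.18, which was 0.11 without DIO 2, 0.10 with normexp background correction and 0.02 with the erythrocyte covariate.

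Immediate early genes, which respond within minutes to growth factors and handling, were higher in DIO-R. Of 19 genes 15 were higher, 9 of them at an unadjusted p under 0.05 (background 6.40%), with a median of 0.21. Egr1 differed by 1.18 ± 0.30 (limma adjusted p = 0.309; 0.79 to 2.41 in DIO, 2.07 to 4.25 in DIO-R) and Fos by 1.05 ± 0.33. Fosb and Junb differed by 0.59 ± 0.19 and 0.54 ± 0.17. The heat shock gene Hspa1a differed by 0.69 ± 0.16 (limma adjusted p = 0.257), whereas the heat shock list as a whole lay at 0.02.

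Genes of antigen presentation and of resident immune cells were lower, and none passed. All 11 MHC class II genes were lower, 6 at an unadjusted p under 0.05 (background 3.91%), with a median of -0.47 and medians of -0.60, -0.43 and -0.51 within the slides. H2-Eb1 lay between 5.18 and 6.19 in DIO and between 4.11 and 5.48 in DIO-R, a difference of -0.56 ± 0.18. Its relative H2-Ab1 differed by -0.41 ± 0.17, and Cd74, the chaperone of class II chains, by -0.51 ± 0.18. Among 15 macrophage and dendritic cell markers 12 were lower (median -0.29), with Aif1 at -0.42 ± 0.12 and the complement gene C1qc at -0.41 ± 0.14; the mean level of these markers ran from -0.19 to 0.52 in DIO and from -0.54 to 0.04 in DIO-R, with DIO-R 6 lowest. Ctss, the protease that trims the class II chaperone, differed by -0.48 ± 0.13. Whether fewer such cells account for the class II values was not tested.

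Interferon response genes were lower on average, by a margin that depended on single arrays. Of 30 genes 28 were lower with a median of -0.40, which was -0.18 without DIO 3. The median was -0.29, -0.66 and -0.18 within slides 1 to 3. It was -0.52 with the muscle and adipocyte covariates, -0.62 with the erythrocyte and -0.51 with the keratinocyte covariate. The mean level of the list ran from -0.51 to 1.73 in DIO, with a median over samples of -0.22, and from -0.92 to 0.55 in DIO-R, with a median of -0.13, so that the median sample was not lower. Gbp7 and Ifit2 differed by -0.76 ± 0.21 and -0.56 ± 0.20.

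Epithelial and stromal markers also differed between the pieces of tissue. Besides the differentiated keratinocyte genes, with Tgm1, a cross-linker of the cornified envelope, at 0.61 ± 0.16 (limma adjusted p = 0.332), all 9 basal keratinocyte markers were higher (median 0.21; 0.11 without DIO 6). Gland markers were lower in 13 of 13 (median -0.43), and leaving out DIO-R 5, DIO 6 or DIO 10 gave medians of -0.25, -0.15 and -0.68. The gland median was -0.03 without DIO 1 and DIO 6, and turned to 0.33 with the muscle and adipocyte covariates and 0.08 with the erythrocyte covariate. Fibroblast, endothelial and smooth muscle markers lay at -0.19, -0.22 and -0.27, and lymphocyte markers at -0.11. The fibroblast and endothelial values were -0.30 and -0.35 without DIO 3, the fibroblast value -0.10 without DIO-R 6, and the smooth muscle value -0.13 or -0.14 when DIO-R 5, DIO 1 or DIO 6 was left out; it turned to 0.03 without both of the latter, 0.21 with the muscle and adipocyte covariates and 0.02 with the erythrocyte covariate. The muscle marker Pvalb differed by -1.19 ± 0.41 and the haemoglobin gene Hbb-bt by -1.23 ± 0.32; haemoglobin beta genes are near-identical copies and cannot be separated with certainty. The muscle median was -0.36 without DIO-R 5. The part of these cell types in the fatty acid and lipid values was not tested beyond the covariate fits given above.

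**Figure D5:**
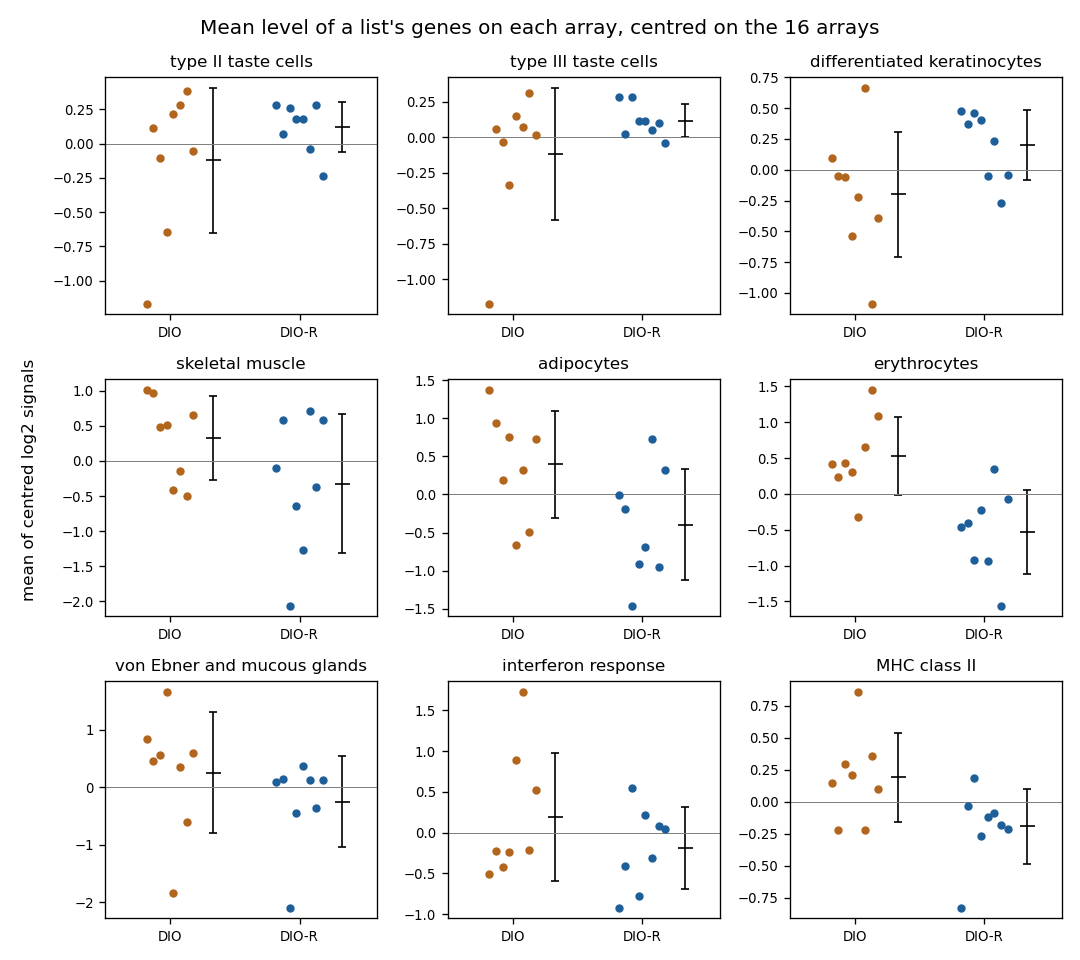
Mean level of the genes of 9 lists in each of the 8 DIO and 8 DIO-R samples (y axes: mean of log2 signals centred on the 16 samples; each panel has its own scale). Points are samples and bars the mean with its SD; the low points of the taste panels are DIO 1 (-1.17 for type II and type III genes), that of the muscle panel is DIO-R 5 (-2.06), and the high point of the interferon panel is DIO 3 (1.73).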

How the data were processed

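The deposited files are scanner output of 1-colour Agilent arrays, 62976 spots each. Per the file headers, Feature Extraction 10.10.1.1 made the background-subtracted intensity of each spot from the scans, with nothing set equal between arrays. Log2 values are held in the authors' deposited value table, with array medians of 7.63 to 7.64; its background and normalization steps are not given in the sources used here beyond the name limma in the submitters' processing notes, and it served as an alternative.

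From the intensity, log2 minus each array's 75th percentile over non-control spots was taken. Outlier spots were left out (9 genes lack a value on an array) and spots of a probe averaged. A gene was its brightest probe over the 16 arrays, kept if well above background on at least 8. Of 35019 symbols, 20660 matched RefSeq genes of GRCm38.p6 and 2168 were updated. Probe positions are those of the headers (mm9); exon and untranslated boundaries were not used here. Differences were fitted with limma 3.58.1 in R 4.3.3 (lmFit, eBayes, two-sided, no covariate) on the 16 arrays and adjusted by Benjamini-Hochberg over the 27414 genes kept; an SE is the moderated one. The fit was tested on simulated data with noise drawn separately for each gene, unlike the real arrays, where genes vary together. It recovered 47% of shifts of 0.5 units, 66% of shifts of 1 unit and 94% of shifts of 2 units. Of 134 calls there, 7 were false. A gene that did not pass may therefore still differ. Plots used matplotlib 3.10.9 under Python 3.11.15, and data.table (version 1.17.8) read the arrays.

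The groups and the 47 lists (773 symbols, 725 kept) were chosen with earlier results of these data known. A list's level on an array is the mean of its genes after centring each on the 16 arrays. Genes named are those called, the 10 next by p, up to 4 members of lowest p in each list and a panel chosen by role; 257 genes meet the rule and 129 of them are followed through the alternatives; some members of the lists are counted in them but not reported here by name. Arrays hold no read depth, so their number, 8 and 8, limits the precision. Alternatives were all 23 arrays in the fit, normexp background (offset 50), quantile normalization, 2 other filters, the mean of probes, slide or replicate number as a block, trend and robust eBayes, array weights, the value table and each array left out. Fits with marker levels as covariates, and without DIO 1 and DIO 6, were added after seeing the data.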

Additional observations from a re-analysis of the deposited data

Results flagged for a closer look

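In 19 of 352 groups of 8 values (named genes and lists, in each group of samples) the most extreme sample stood apart from the other 7, by a gap to its nearest neighbour beyond Dixon's 95% limit. Chance flags about 1 in 20 groups, so this number is near what chance gives, and the values are given without a reading.

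Among the DIO samples, DIO 1 was the lowest in Ciart (-6.40, nearest sample -4.63), Pkd2l1 (-3.03, nearest -1.04), Cnr1 (-3.71, nearest -2.67) and the type III taste cell list (-1.17, nearest -0.34). DIO 6 was the highest in Nfil3 (2.71, nearest 1.82) and the lowest in Lef1 (0.64, nearest 1.15). DIO 10 was the highest in Aif1 (1.79, nearest 1.37). DIO 3 was the highest in the epithelial antimicrobial list (1.00, nearest 0.11) and the lowest in the endothelial list (-0.65, nearest -0.01).

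Among the restricted samples, DIO-R 6 was the lowest in H2-Eb1 (4.11, nearest 4.91), H2-Ab1 (4.57, nearest 5.30), the MHC class II list (-0.83, nearest -0.27), the nerve and Schwann cell list (-0.60, nearest -0.08) and the macrophage and dendritic cell list (-0.54, nearest -0.21), and the highest in Mvd (1.599, nearest 1.103). DIO-R 5 was the lowest in Gpihbp1 (-0.29, nearest 0.74), the gland list (-2.09, nearest -0.44) and the smooth muscle list (-1.19, nearest -0.34). DIO-R 4 was the highest in Gpr84 (-2.02, nearest -3.35).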

How the results depend on the processing

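The number of genes that passed, 15 (6 higher, 9 lower), became 9 (2 higher) with no filter on dim probes, 23 (14 lower) in the authors' value table and 0 (0 higher, 0 lower) with the replicate block; it was between 12 and 22 in the other planned fits of all 16 arrays, with 3 higher for the mean of probes and for the slide block and 15 lower with array weights. It ran from 5 to 20 with 1 array left out at a time (0 to 8 higher, 5 to 12 lower). Among the fits added after seeing the data it was 8 (1 higher) with muscle and adipocyte levels as covariates, 1 (0 higher, 1 lower) with the erythrocyte level, 7 (0 higher) with the keratinocyte level and 9 (2 higher) without DIO 1 and DIO 6. With no filter 35019 genes were tested; otherwise the cause was not tested.

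The replicate block used 7 numbers that both groups share. Of the 7 correlations between samples of the same number, 1 was above 0.1 (number 2, 0.15, and the others -0.23 to 0.06). None correlated best with its own number. So few correlations, taken over all genes of a mixed tissue, cannot show whether samples of a number were paired. A pairing was not tested further. With the replicate block 1710 genes had an unadjusted p under 0.05, against 2828 without it.

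Angptl4 passed in 30 of 31 settings, Tmem82 and Acot1 in 29, Acot5 and Impa2 in 28, Cpt1a in 24, Scd2 in 17, Dbp in 16, Pdk4 and Klf11 in 14, Txnip in 11, Hivep2 in 10, Bdh1 in 9, Ccdc116 in 8 and Camkk1 in 7, each in its own direction in all 31.

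A list median was counted as moved when it shifted by at least the pooled SD of the list's level between samples. This held for ketone bodies (0.082 with muscle and adipocyte levels and 0.076 with the erythrocyte level as covariates) and appetite hormone receptors (0.024 with the erythrocyte level). It also held for erythrocytes and adipocytes with their own level as a covariate (0.023 and 0.063). Below that limit some medians still vanished or turned, besides those given above. Skeletal muscle lay at -0.007 with muscle and adipocyte levels and differentiated keratinocytes at 0.007 with the keratinocyte level. Pyruvate dehydrogenase control turned to 0.094 with muscle and adipocyte levels. Fibroblasts turned to 0.054 with the erythrocyte level. Signs turned for differences that never passed, some of them as large in the main fit as those of genes that passed. With muscle and adipocyte levels these were Acadl 0.018, Pdk2 0.087, Ppara 0.16, Tas1r1 -0.13, Tas1r2 -0.064, Gnat3 -0.11, Trpm5 -0.086, Pkd2l1 -0.053, Entpd2 -0.054, Lgr5 -0.027 and Sox2 -0.0080. Without DIO 1 and DIO 6 they were Ppara 0.089, Irs2 0.026, Tas1r1 -0.12, Tas1r2 -0.084, Gnat3 -0.10, Trpm5 -0.093, Entpd2 -0.017, Lgr5 -0.057 and Sox2 -0.015. With the mean of probes they were Per1 -0.027, Pdhx 0.073 and Plcb2 0.067. Ppara lay at 0.048 with the replicate block and from -0.197 to 0.0097 with 1 array left out at a time (0.0097 without DIO 1). Bhlhe41 lay at -0.071 with the erythrocyte level, Tsc22d3 at 0.063 with the keratinocyte level and Plcb2 at 0.016 in the value table. The cause was not tested.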

Other observations

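Several groups of genes lay close to the median of all genes, 0.01. Autophagy and lysosome genes had a median difference of 0.01 over 15 genes, amino acid and unfolded protein response genes 0.03 over 18, ribosomal protein genes 0.02 over 20, and inflammatory cytokines and NF-kB targets 0.07 over 16, and no gene of these lists passed. Oxidative stress genes lay at 0.09 over 14 genes, neutrophil and mast cell markers at -0.06 over 10, and nerve and Schwann cell markers at -0.05 over 9.

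Cell cycle genes were slightly lower, 16 of 25 with a median of -0.14; it was -0.08 without DIO 3, -0.22 without DIO-R 8 and -0.04 with the mean of probes. Mki67, a protein of dividing nuclei, differed by -0.16 ± 0.12 and the mitotic cyclin Ccnb1 by -0.36 ± 0.13, and neither passed. Epithelial antimicrobial genes were higher in 12 of 16 with a median of 0.20, which was 0.36 without DIO 3 and 0.10 without DIO-R 4, and -0.13 with the keratinocyte level as a covariate.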
